A study of Mus musculus with 8 samples.

Results

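Genes of the ATF4 amino acid response were described by RNA sequencing of endometrial cancers from 4 engineered mouse models. The group was a named list of 33 genes, chosen by symbol. It held ATF4 and regulators around it, enzymes of amino acid synthesis, mitochondrial folate enzymes, amino acid transporters and cytosolic aminoacyl-tRNA synthetases. All 33 were among the 24419 gene symbols of the count table, and all 33 were among the 15875 genes that passed the filter on low counts. The list was chosen by name and not by level, although earlier results of these data were known when it was drawn up.

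Each model had 2 libraries. All 4 models began as uterus organoids of CAG-Cas9-EGFP mice, in which a broadly active promoter drives Cas9, and all were edited with an sgRNA against Trp53, the p53 tumor suppressor gene. TPM also overexpressed Myc, TPMCa was made to overexpress Myc and a Pik3ca cDNA with the activating E545K change, and TPMR1 overexpressed Myc and was edited with an sgRNA against Pik3r1. No Myc was introduced into TPK. Other engineered genes of these models are not named here. The organoids were placed in the uterus of nude mice, which lack mature T cells, and the study's methods describe tumor tissue collected about 2 months later, whereas the sample labels describe organoids from the tumors. RNA was polyadenylated RNA in all 8 libraries. The labels do not say whether the libraries of a model came from separate mice, whereas the study's legends to its expression plots count as many mice as there are libraries in each model. The p-values measure the spread between these libraries.

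ATF4 is a transcription factor whose mRNA is translated more when the initiation factor eIF2 is phosphorylated, by kinases that sense uncharged tRNA, stress in the endoplasmic reticulum, double-stranded RNA or lack of heme. The growth kinase complex mTORC1 also raises ATF4 protein. ATF4 then acts, with C/EBP partners, on genes that make serine, glycine, asparagine and proline, import amino acids and join them to tRNAs. Much of this control is on translation and is not read by mRNA levels.

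The DNA element that ATF4 and C/EBP proteins share was searched for, because it is the feature the genes of the response are known for. Promoters of 26 of the 33 genes were in the RefSeq table for GRCm38.p6. Aldh1l2, Slc7a5, Slc1a5, Wars, Nars, Lars and Cars were not matched in that table. The 8 letters TGATGNAA, the core of the C/EBP-ATF response element, were looked for on both strands in the 250 bases before each annotated start. They were found in 8 of the 26 genes, or 30.8% (exact 95% interval 14.3 to 51.8%), against 3.91% of all 27025 genes in the table. The interval covers counting error only. Windows around the matches of 7 of these genes are shown on the strand of the gene, 5′ to 3′, with the matching letters in capitals, and a match on the other strand appears as its reverse complement.
Atf3, chr1:191183416-191183463, minus strand: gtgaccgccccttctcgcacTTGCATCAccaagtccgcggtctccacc
Chac1, chr2:119351029-119351076, plus strand: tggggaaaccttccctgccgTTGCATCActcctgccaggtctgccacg
Asns, chr6:7693214-7693243, minus strand: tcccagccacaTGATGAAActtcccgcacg
Pycr1, chr11:120643824-120643871, minus strand: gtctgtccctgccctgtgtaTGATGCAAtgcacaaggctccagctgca
Slc7a11, chr3:50443633-50443699, minus strand: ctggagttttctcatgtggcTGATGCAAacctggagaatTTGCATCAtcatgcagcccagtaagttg
Gars, chr6:55037951-55037998, plus strand: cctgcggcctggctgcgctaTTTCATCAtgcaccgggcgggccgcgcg
Tars, chr15:11399659-11399684, minus strand: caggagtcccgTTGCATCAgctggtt
The matches shown differed at the N and at the strand, and lay between 8 and 193 bases before the start. Slc7a11 held 2 matches in opposite orientation, 11 bases apart. The windows of Asns and Tars overlapped sequence that GENCODE annotates as exon, so only 26 to 30 bases are shown. A longer sequence that contains the core, ATTGCATCA on either strand, was in 2 of the 26 promoters, or 7.69%, against 0.192% of all genes. A letter match does not say that a protein binds there.

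**Figure D1:**
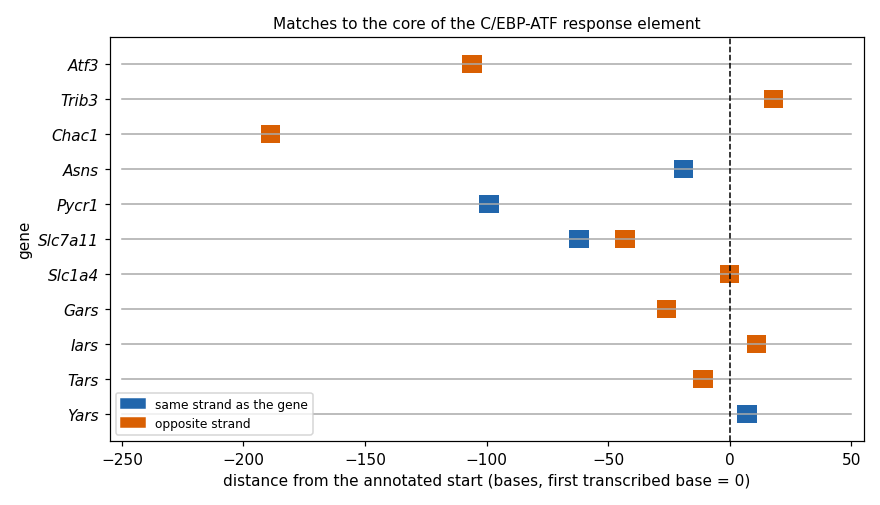
Position of the matches to TGATGNAA from 250 bases before to 50 bases after the annotated start (horizontal axis, bases, 0 is the first transcribed base) in 11 of the 12 genes with a match; each block is 1 match of 8 bases, blue on the strand of the gene and orange on the other. The 8 matches of 7 genes that end before the start lie left of the dashed line, and Trib3, Slc1a4, Iars and Yars have a match only across or after it.

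Total counts lay between 15748396 and 26943611 per library, the highest in replicate 1 of TPMR1, and a floor of 3 counts equals 0.116 to 0.198 CPM, the counts scaled by the TMM method to a common library size (CPM). Every gene of the list lay above this floor in every library. Endometrial tumors are epithelial, and the defining markers were checked: the summed level of 6 general epithelial genes was 2941 to 5498 CPM in TPM and TPK but 6.47 to 73.3 CPM in TPMCa and TPMR1, with all 6 detected in each library. The summed level of 8 squamous genes was 5462 to 20480 CPM against 1.47 to 12.5 CPM, with 4 and 3 of them at 0 counts in the TPMR1 libraries and 1 at 0 in TPMCa replicate 2. Thus both marker lists were low in the libraries labelled TPMCa and TPMR1. The sum of 5 steroidogenic genes was 5078 and 446 CPM in TPMR1 and 6.40 to 22.7 CPM in the others. Summed markers ranged widely over the 8 libraries for fibroblasts (876 to 16600 CPM), macrophages (302 to 4378 CPM) and endothelial cells (45.8 to 552 CPM). They also did for smooth muscle (27.7 to 598 CPM) and T lymphocytes (0.0774 to 18.1 CPM). Of 5 erythrocyte genes, 4, all globins, were at 0 counts in each library. The remaining erythrocyte gene, Alas2, was at 60.4 CPM in TPMCa replicate 1 and at 38.96 CPM in TPK replicate 2. Alas2 was at 2.003 CPM in TPMCa replicate 2 and at 3.835 to 11.4 CPM in the other libraries. Trp53 mRNA was still present, at 33.2 to 131 CPM over the 8 libraries. All 4 models were edited for Trp53, so there is no unedited library to compare this level with. Pik3r1 mRNA was 101 and 51.3 CPM in TPMR1 against 78.1 to 188 CPM elsewhere, so its level does not set the libraries edited for Pik3r1 apart. Pik3ca mRNA was 89.9 and 83.3 CPM in TPMCa against 60.9 to 80.1 CPM elsewhere, so the libraries labelled TPMCa were highest but close to the others. The marker values separate TPMCa and TPMR1 from TPM and TPK in the same way as some comparisons below, and their part in those results was not tested. In bulk samples, fewer cells of a type and less RNA of its markers per cell cannot be told apart.

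Over these genes the replicates differed most in TPMCa. The median absolute log2 difference between the 2 replicates over the 33 genes was 0.73 in TPMCa, 0.46 in TPMR1, 0.22 in TPK and 0.17 in TPM, against 0.50, 0.67, 0.40 and 0.35 over all genes. Of the 33 genes, 18 had their highest level of all 8 libraries in TPMCa replicate 1, where 14.4% of all 15875 tested genes had theirs. Levels were higher in replicate 1 than in replicate 2 of TPMCa for 32 of the 33 genes, against 47.2% of all genes, and the exception was Pycr1. Relative to the mean of TPM, the median gene of the list stood at 0.91 on the log2 scale in TPMCa replicate 1 and at −0.08 in replicate 2. The median was 0.0059 and 0.10 in TPMR1 and −0.14 and −0.21 in TPK, and medians of all genes lay between −0.044 and 0.0095. The lowest level was in a TPK library for 17 of the 33 genes, 9 of them in replicate 1 and 8 in replicate 2, where 10.3 and 15.9% of all genes had theirs. Myc mRNA was 772 and 1767 CPM in TPM, 3075 and 324 in TPMCa, 606 and 466 in TPMR1 and 154 and 92.8 in TPK, highest of all in TPMCa replicate 1 and lowest in TPK. In TPMCa replicate 1 the summed markers of fibroblasts and macrophages were 8509 and 1025 CPM, against 16600 and 4378 CPM in replicate 2. The erythrocyte gene Alas2 was at 60.4 CPM in TPMCa replicate 1, against 2.003 CPM in replicate 2. The part of these levels in the values of these genes was not tested.

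**Figure D2:**
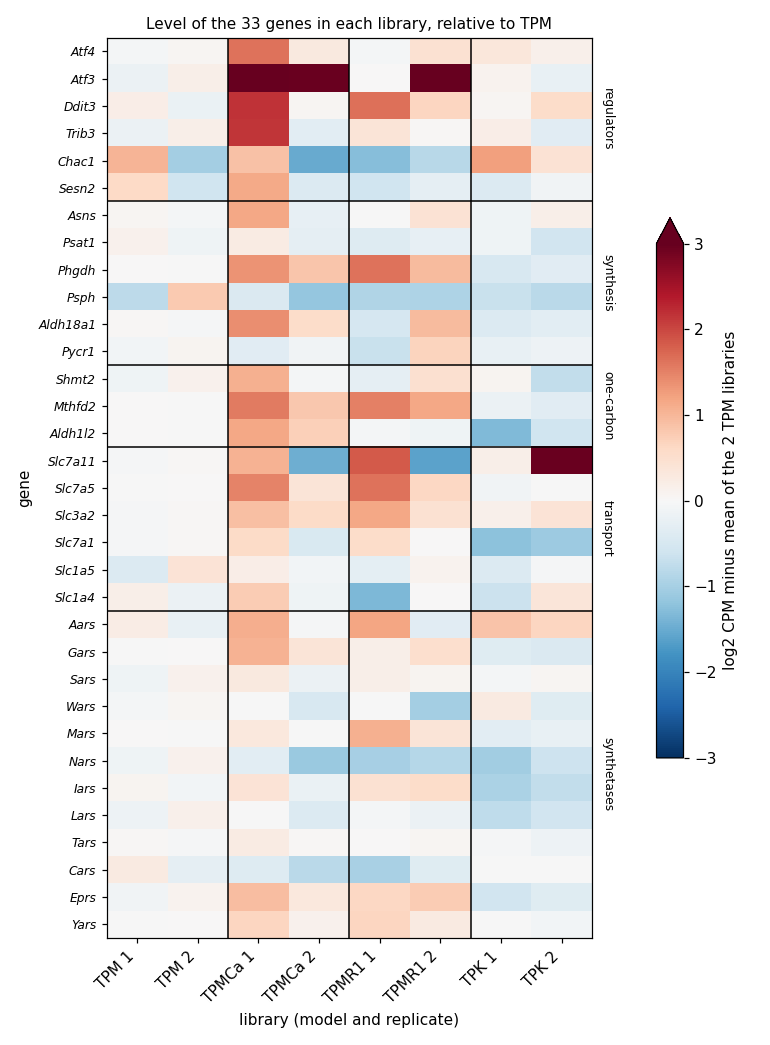
Log2 CPM of each of the 33 genes (rows, grouped by role) in each of the 8 libraries (columns), minus the mean of the 2 TPM libraries; red is higher, blue lower, and values past 3 share the darkest color. The column of TPMCa replicate 1 is red for most genes while that of replicate 2 is mixed, and the Atf3 row is dark in 3 libraries.

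The 6 comparisons were made across all tested genes, with edgeR and an adjusted p under 0.05 as the threshold. They are not independent: TPMCa and TPMR1 were each set against the same TPM libraries, alone and as the mean of both, and TPK was set against TPM and against that mean. Against TPM, 0 of the 33 genes passed in TPMCa, 0 in TPMR1 and 1, Mthfd2, in the mean of both, where it was higher. Among all genes, 0.466% passed as higher and 3.02% as lower in TPMCa, 1.08 and 4.50% in TPMR1, and 1.45 and 7.44% in the mean of both. The 1 gene of 33 equals 3.03%, near that background. At an unadjusted p under 0.05, 7 genes were higher and 0 lower in TPMCa, and 6 were higher and 1 lower in TPMR1, against 8.95 and 13.1% of all genes in TPMCa and 9.48 and 13.6% in TPMR1. In the mean of both, 6 were higher and 1 lower, against 9.28 and 15.7% of all genes. DESeq2 called 3 genes in TPMCa (Atf3, Phgdh and Mthfd2), 2 in TPMR1 (Phgdh and Mthfd2) and 4 in the mean of both (these 3 and Slc3a2), all higher. These were 9.09, 6.06 and 12.1% of the list, where DESeq2 called 6.14, 6.85 and 7.51% of all genes as higher and 9.90, 11.2 and 12.1% as lower.

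TPK against the mean of TPMCa and TPMR1 gave the most calls. There, 6 of the 33 genes passed, or 18.2%, all lower in TPK, against 4.06% of all genes that were lower and 10.3% that were higher. These were Phgdh, Mthfd2, Aldh1l2, Slc7a1, Iars and Eprs, which make serine, carry folate units in mitochondria, import arginine and lysine, and charge tRNAs. At an unadjusted p under 0.05, 11 were lower and 0 higher, against 13.3 and 18.7% of all genes. None of the 6 calls held under every omission of 1 library, and the share of all genes called in those fits is not given here. Over these omissions the log2 fold change was −1.783 to −1.435 for Phgdh, −1.715 to −1.339 for Mthfd2 and −1.766 to −1.042 for Aldh1l2. It was −1.591 to −1.077 for Slc7a1, −1.294 to −0.9877 for Iars and −1.267 to −0.9682 for Eprs. Fitting the compared models alone gave 2 calls, also without that share. DESeq2 called the same 6 and also Atf3, Slc7a5, Gars and Mars, or 30.3% of the list, all lower, where it called 12.9% of all genes as lower and 15.6% as higher. In TPK against TPM, edgeR called 0 of the 33 genes, as it did of all genes, with 4 of the 33 at an unadjusted p under 0.05, all lower (3.80% of all genes were lower and 3.37% higher), and 0 called by DESeq2, which called 0.970% of all genes as lower and 0.669% as higher. TPMR1 and TPMCa differed in 0 genes of the list and in 0 of all genes by edgeR, with 1 of the list (Aldh1l2, lower in TPMR1) at an unadjusted p under 0.05, where 6.27% of all genes were lower and 5.49% higher, and DESeq2 called 0 of the list, against 2.92 and 2.04% of all genes. The F test for any difference among the 4 models passed for Mthfd2 (adjusted p = 0.0438) and Phgdh (adjusted p = 0.0479), or 6.06% of the list, against 7.32% of all genes. The likelihood ratio test of DESeq2 called 27.3% of the list and 30.0% of all genes.

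Medians describe the list as a whole. The median log2 fold change of the 33 genes was 0.41 in TPMCa against TPM, 0.22 in TPMR1 against TPM and 0.42 in the mean of both against TPM, where that of all genes was −0.013, 0.031 and 0.022. It was −0.20 in TPK against TPM and −0.49 in TPK against the mean of TPMCa and TPMR1, where that of all genes was 0.012 and −0.0020. Without TPMCa replicate 1 the median in TPMCa against TPM was −0.10, that in the mean of both against TPM was 0.030, and that in TPK against this mean was −0.21. In TPMR1 against TPMCa the median of −0.15 became 0.24 without that library. The median in TPMR1 against TPM was 0.071 without TPMR1 replicate 1 and 0.0057 without TPMR1 replicate 2. Of the positive medians against TPM, that of TPMCa thus changed sign without 1 library. Those of TPMR1 and of the mean of both kept their sign but fell to as low as 0.0057 and 0.030. The negative median of TPK against the mean of both also kept its sign, and went from −0.49 to −0.21 without TPMCa replicate 1.

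**Figure D3:**
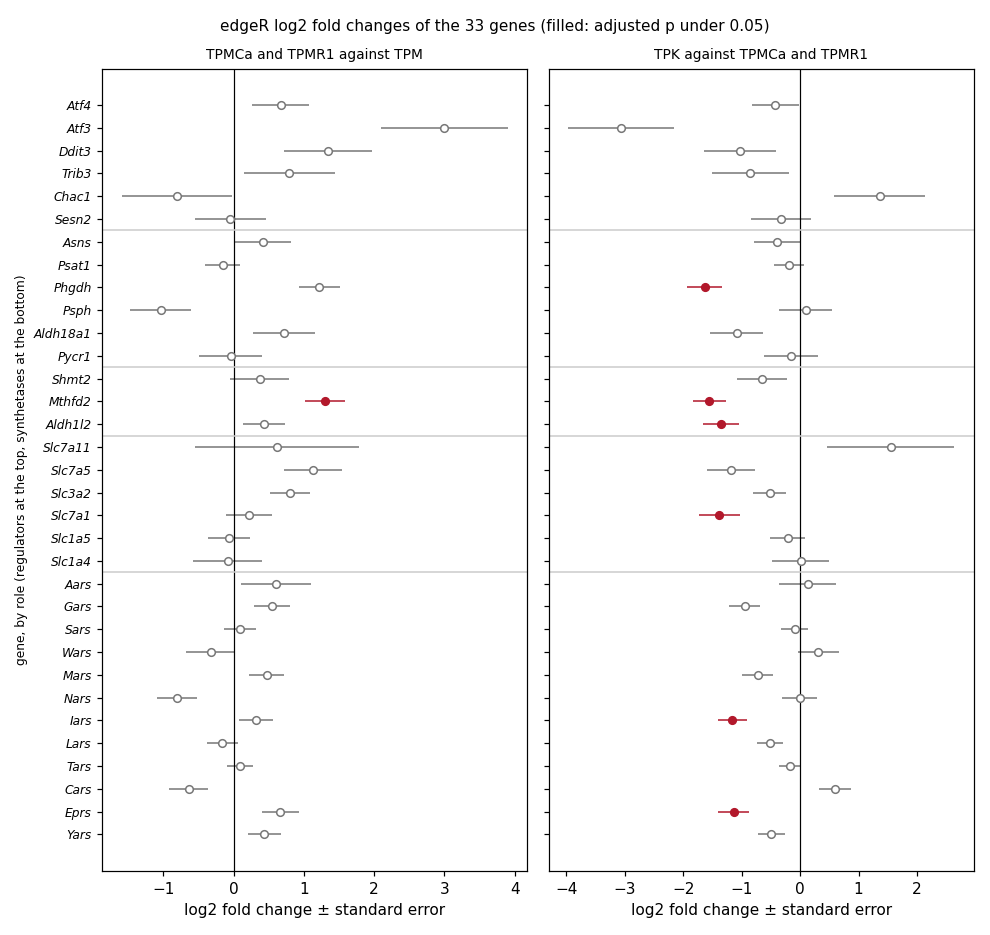
edgeR log2 fold change (horizontal axis) with its standard error (bar) for each of the 33 genes in the mean of TPMCa and TPMR1 against TPM (left) and in TPK against that mean (right); filled red points passed an adjusted p under 0.05. Mthfd2 is filled on the left, and Phgdh, Mthfd2, Aldh1l2, Slc7a1, Iars and Eprs are filled on the right, all below 0; the scales of the panels differ.

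The 6 regulators had no call by edgeR and large differences between replicates. Atf4 mRNA was 236 and 254 CPM in TPM, 762 and 299 in TPMCa, 235 and 336 in TPMR1 and 308 and 273 in TPK. TPMCa replicate 1 stood alone at the top, and the other 7 libraries lay between 235 and 336 CPM. The difference between TPMCa and TPM (log2 fold change 1.12 ± 0.458, adjusted p = 0.219) did not pass, and without TPMCa replicate 1 the log2 fold change was 0.30. In TPMR1 against TPM (log2 fold change 0.22 ± 0.452, adjusted p = 0.816) and in TPK against the mean of TPMCa and TPMR1 (log2 fold change −0.42 ± 0.399, adjusted p = 0.505) Atf4 did not pass either.

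Atf3, a stress-induced factor of the same family, was 24.02 and 31.1 CPM in TPM, 508 and 213 in TPMCa, 27.7 and 242 in TPMR1 and 29.4 and 23.4 in TPK. Both TPMCa libraries and TPMR1 replicate 2 were at 213 CPM or more, and the other 5, TPMR1 replicate 1 among them, at 31.1 CPM or less. Its difference between TPMCa and TPM was the largest of the 33 (log2 fold change 3.71 ± 0.990, adjusted p = 0.0958), and it did not pass by edgeR, while DESeq2 gave an adjusted p of 0.000689. In TPK against the mean of TPMCa and TPMR1 it was at −3.06 ± 0.908 (edgeR adjusted p = 0.0691). Without TPMR1 replicate 2 this log2 fold change was −1.92, and without TPMR1 replicate 1 it was −3.48, so its size depended on which TPMR1 library was kept.

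Ddit3 encodes CHOP, a factor that promotes cell death under lasting stress, and was 29.1 and 21.8 CPM in TPM, 113 and 26.2 in TPMCa, 79.3 and 39.2 in TPMR1 and 26.2 and 36.9 in TPK. TPMCa replicate 1 and TPMR1 replicate 1 were highest, and TPMCa replicate 2 lay within the range of TPM. The log2 fold change was 1.45 ± 0.693 in TPMCa against TPM (adjusted p = 0.272) and 1.22 ± 0.689 in TPMR1 against TPM (adjusted p = 0.344). Ddit3 and Mars overlap on opposite strands, at chr10:127296221-127296288, and whether the counting used the strand is not given in the sources used here.

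Trib3, a pseudokinase that feeds back on ATF4, was 14.4 and 18.4 CPM in TPM, 72.5 and 12.97 in TPMCa, 21.3 and 16.6 in TPMR1 and 18.8 and 12.8 in TPK. Only TPMCa replicate 1 left the range of 12.8 to 21.3 CPM. In TPMCa against TPM its log2 fold change was 1.38 ± 0.740 (adjusted p = 0.318), and −0.32 without that library. Chac1, which degrades glutathione, had its highest levels in TPM replicate 1, TPMCa replicate 1 and both TPK libraries: it was 23.2 and 5.49 CPM in TPM, 20.8 and 3.90 in TPMCa, 4.57 and 6.34 in TPMR1 and 26.9 and 15.3 in TPK. Replicates of TPM and of TPMCa differed by more than the means of the other models did from that of TPM. Sesn2, a sestrin that restrains mTORC1 when leucine is low, was at 66.5 and 97.7 CPM in replicate 1 of TPM and of TPMCa and at 28.9 to 40.7 CPM in the other 6 libraries.

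Among the enzymes of amino acid synthesis, Phgdh differed between models, and the others passed in no comparison by edgeR. Phgdh opens serine synthesis from a glycolytic intermediate. Its level was 173 and 172 CPM in TPM, 436 and 309 in TPMCa, 536 and 330.2 in TPMR1 and 124 and 136 in TPK. Every library of TPMCa and TPMR1 was above every library of TPM, and every library of TPM was above those of TPK. The level was lower in TPK than in the mean of TPMCa and TPMR1 (log2 fold change −1.63 ± 0.301, adjusted p = 0.0175) and the fitted ratio was 0.323. The adjusted p was 0.0501 without TPMCa replicate 1, and 0.115 and 0.126 without TPK replicate 1 and 2. Against TPM it was at 1.11 ± 0.325 in TPMCa, 1.33 ± 0.326 in TPMR1 and 1.22 ± 0.294 in the mean of both, with adjusted p of 0.117, 0.0681 and 0.0514. A pseudogene, Phgdh-ps1, is annotated, and reads that fit both cannot be assigned with certainty.

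The next enzymes of the serine path did not follow Phgdh. Psat1 was 219.7 and 183 CPM in TPM, 238 and 166 in TPMCa, 154 and 170.0 in TPMR1 and 184 and 134 in TPK, with a log2 fold change of −0.19 ± 0.254 in TPK against the mean of TPMCa and TPMR1 (adjusted p = 0.657). Psph, which takes the phosphate off to release serine, was 33.3 and 100.1 CPM in TPM, 42.9 and 25.9 in TPMCa, 30.8 and 30.4 in TPMR1 and 36.1 and 33.1 in TPK. The TPM libraries differed by more than any other pair of replicates, and the remaining 7 libraries lay between 25.9 and 42.9 CPM.

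Asns, asparagine synthetase and a standard reporter of the response, was 89.9 and 82.3 CPM in TPM, 192 and 73.1 in TPMCa, 85.03 and 116 in TPMR1 and 78.2 and 97.2 in TPK. TPMCa replicate 1 was highest and TPMCa replicate 2 lowest of all 8 libraries, so that the difference from TPM (log2 fold change 0.62 ± 0.452, adjusted p = 0.446) was within the spread of TPMCa and became −0.22 without replicate 1. In TPK against the mean of TPMCa and TPMR1 Asns was at −0.39 ± 0.396 (adjusted p = 0.533). For proline synthesis, Aldh18a1 was 116 and 110.4 CPM in TPM, 299 and 167 in TPMCa, 79.7 and 221 in TPMR1 and 85.4 and 90.8 in TPK. Its 2 TPMR1 libraries were the lowest of the 8 and the highest after TPMCa replicate 1. Pycr1, which forms proline in mitochondria, was low throughout, at 6.58 to 16.7 CPM, and was the only gene of the list that was not higher in TPMCa replicate 1 than in replicate 2.

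**Figure D4:**
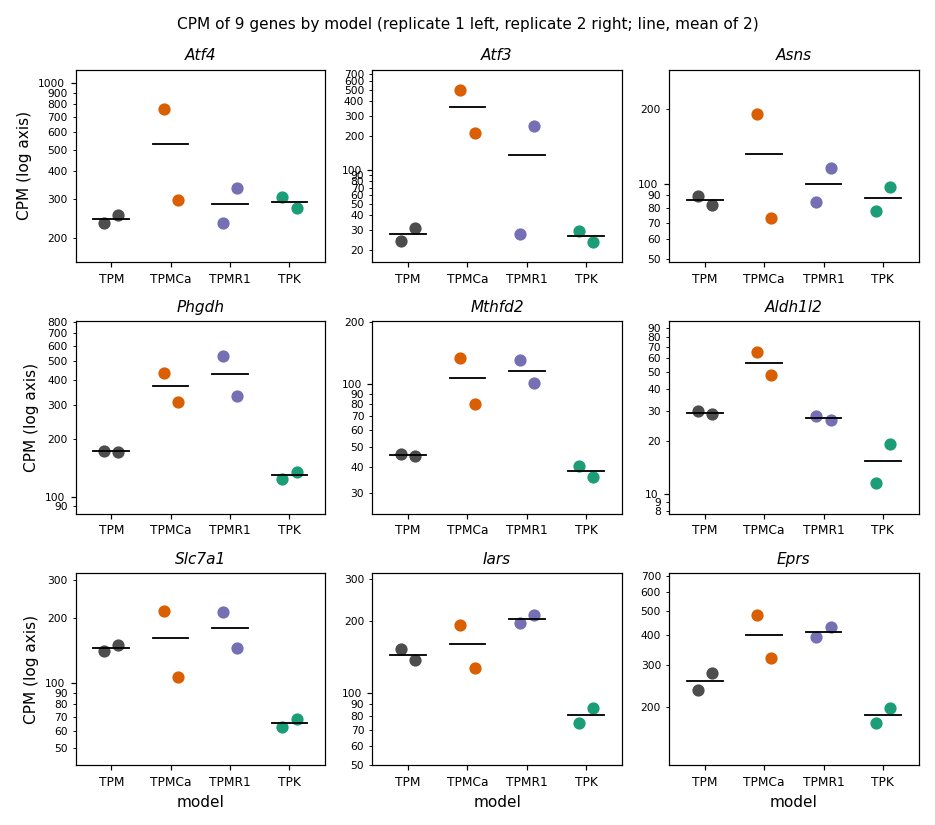
CPM (vertical axis, log scale, separate for each gene) of 9 genes in the 4 models; each point is 1 library, replicate 1 left and replicate 2 right, and the line is the mean of the 2. Phgdh and Mthfd2 are higher in TPMCa and TPMR1 than in TPM and TPK without overlap, Slc7a1, Iars and Eprs are lowest in both TPK libraries, and Atf4 and Asns are high in 1 TPMCa library only.

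Of the 3 mitochondrial folate enzymes, Mthfd2 and Aldh1l2 passed in a comparison and Shmt2 did not. Mthfd2 oxidizes the folate unit that serine gives up in mitochondria and is scarce in most adult tissues. It was 46.0 and 45.02 CPM in TPM, 134 and 80.1 in TPMCa, 131 and 102 in TPMR1 and 40.4 and 35.7 in TPK. All 4 libraries of TPMCa and TPMR1 were at 80.1 CPM or more and all 4 of TPM and TPK at 46.0 CPM or less. Mthfd2 was higher in the mean of TPMCa and TPMR1 than in TPM (log2 fold change 1.30 ± 0.283, adjusted p = 0.0387), a 2.46-fold difference, and lower in TPK than in that mean (log2 fold change −1.55 ± 0.287, adjusted p = 0.0176). TPMCa and TPMR1 did not differ in it beyond their spread (0.12 ± 0.307). Without TPMCa replicate 1, the log2 fold change against TPM was 1.09 with an adjusted p of 0.0779.

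Aldh1l2, which ends the mitochondrial path by forming carbon dioxide and NADPH, was 29.7 and 28.8 CPM in TPM, 65.2 and 48.03 in TPMCa, 28.1 and 26.7 in TPMR1 and 11.5 and 19.3 in TPK. The order was TPMCa, then TPM and TPMR1 near each other, then TPK, and TPMCa and TPK overlapped no other model. It was lower in TPK than in the mean of TPMCa and TPMR1 (log2 fold change −1.35 ± 0.313, adjusted p = 0.0348), and at −1.05 ± 0.341 in TPMR1 against TPMCa (adjusted p = 0.380). Without TPMCa replicate 1 the adjusted p for TPK was 0.0937, at a log2 fold change of −1.23. Shmt2, which takes the folate unit from serine, was 219 and 260.1 CPM in TPM, 497 and 228 in TPMCa, 197 and 332 in TPMR1 and 252 and 144 in TPK. The replicates of TPMCa differed by more than any pair of model means, and Shmt2 passed in no comparison. Shmt2 and Aldh1l2 overlap other protein-coding genes on the opposite strand (Ndufa4l2 and D10Wsu102e).

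Of the transporters, Slc7a1 differed in TPK. Slc7a1 imports arginine and lysine and was 142 and 151 CPM in TPM, 216 and 106 in TPMCa, 214 and 146 in TPMR1 and 62.4 and 68.4 in TPK. Both TPK libraries lay under all others, and TPM lay within the range of TPMCa. The level was lower in TPK than in the mean of TPMCa and TPMR1 (log2 fold change −1.38 ± 0.348, adjusted p = 0.0442), and at −1.16 ± 0.381 in TPK against TPM (adjusted p = 0.668). Without TPMCa replicate 1 the adjusted p was 0.0740, at −1.08.

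Slc7a5 and Slc3a2 encode the light and heavy chains of a transporter that exchanges glutamine for leucine and other large neutral amino acids. Slc7a5 was 151 and 153 CPM in TPM, 424 and 201 in TPMCa, 473 and 235 in TPMR1 and 142 and 152 in TPK. Slc3a2 was 214 and 221 CPM in TPM, 408 and 326 in TPMCa, 486 and 297 in TPMR1 and 239.9 and 289 in TPK. Both genes were higher in every TPMCa and TPMR1 library than in every TPM and TPK library, and in both TPMCa and TPMR1 replicate 1 lay above replicate 2. In the mean of TPMCa and TPMR1 against TPM the log2 fold changes were 1.13 ± 0.413 (adjusted p = 0.154) for Slc7a5 and 0.80 ± 0.283 (adjusted p = 0.142) for Slc3a2, neither of which passed by edgeR.

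Slc7a11, the cystine importer that feeds glutathione synthesis, varied widely between replicates. It was 35.9 and 37.8 CPM in TPM, 76.1 and 13.2 in TPMCa, 132 and 11.95 in TPMR1 and 41.9 and 289.9 in TPK. TPK replicate 2 was the highest and TPMR1 replicate 2 the lowest library, and only the TPM replicates were close to each other. In TPK against TPM the log2 fold change was 2.17 ± 1.36 (adjusted p = 0.760), and 0.19 without TPK replicate 2. The neutral amino acid transporters Slc1a5 and Slc1a4 lay between 133 and 235 CPM and between 17.0 and 73.5 CPM, and passed in no comparison.

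The 12 synthetases, which load tRNAs with amino acids in the cytosol, differed in how they varied, and 2 passed: Iars and Eprs were lower in TPK than in the mean of TPMCa and TPMR1. Iars, for isoleucine, was 153 and 137 CPM in TPM, 193 and 127 in TPMCa, 197 and 212 in TPMR1 and 74.9 and 87.02 in TPK. Both TPK libraries were the lowest of the 8, and TPM and TPMCa overlapped (log2 fold change −1.16 ± 0.249, adjusted p = 0.0279 for TPK against the mean of TPMCa and TPMR1). Eprs, for glutamate and proline, was 235 and 276 CPM in TPM, 481 and 319 in TPMCa, 393 and 429.6 in TPMR1 and 171 and 198 in TPK. TPK was lowest, TPM next, and TPMCa and TPMR1 overlapped above them (log2 fold change −1.14 ± 0.264, adjusted p = 0.0353 for the same comparison). Without TPMCa replicate 1 the adjusted p was 0.0638 for Iars and 0.0755 for Eprs.

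Gars, for glycine, and Mars, for methionine, were also lowest in TPK without passing by edgeR. Gars was 169 and 169.8 CPM in TPM, 349 and 222 in TPMCa, 192 and 241 in TPMR1 and 132 and 125 in TPK, with log2 fold change −0.95 ± 0.261, adjusted p = 0.0563 in TPK against the mean of TPMCa and TPMR1. Mars was 98.7 and 98.6 CPM in TPM, 124 and 98.4 in TPMCa, 207 and 129 in TPMR1 and 79.8 and 85.04 in TPK, with log2 fold change −0.73 ± 0.258, adjusted p = 0.107. Every TPMCa and TPMR1 library lay above both TPK libraries for both genes. Yars, for tyrosine, was at 87.1 and 91.0 CPM in TPK, at 91.8 and 92.9 CPM in TPM and at 101 to 144 CPM in TPMCa and TPMR1, and passed in no comparison. Lars, for leucine, was at 97.9 and 113 CPM in TPK and at 126 to 186 CPM elsewhere.

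Nars and Cars were lower in TPMCa and TPMR1 than in TPM, without passing. Nars, for asparagine, was 414 and 499 CPM in TPM, 362 and 208 in TPMCa, 227 and 252 in TPMR1 and 221 and 298 in TPK. Every other library lay under both of TPM, and the log2 fold change in the mean of TPMCa and TPMR1 against TPM was −0.81 ± 0.288 (adjusted p = 0.146). Cars, for cysteine, was 129 and 87.1 CPM in TPM, 81.4 and 60.4 in TPMCa, 53.7 and 81.6 in TPMR1 and 104 and 105 in TPK. It was lower in every library of TPMCa and TPMR1 than in TPM and in TPK, at −0.64 ± 0.274 against TPM (adjusted p = 0.208), and it is the only gene of the 33 that was higher in both TPK libraries than in all 4 of TPMCa and TPMR1, where 22.4% of all genes were. Tars and Sars varied least, at 107 to 140 CPM and 183 to 254 CPM. Aars lay between 123 and 349 CPM, with TPMR1 replicates at the top and the bottom of that range, and Wars between 40.4 and 98.9 CPM.

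Groups that do not overlap are common with 2 libraries a model, and the list is read against that. In TPK, 13 of the 33 genes lay under all 4 libraries of TPMCa and TPMR1, or 39.4%, against 18.5% of all genes: Phgdh, Mthfd2, Aldh1l2, Slc7a5, Slc3a2, Slc7a1, Gars, Mars, Iars, Lars, Tars, Eprs and Yars. Against TPM, 13 genes were lower in both TPK libraries (23.5% of all genes) and 4 were higher (24.4% of all genes), these being Atf4, Slc7a11, Slc3a2 and Aars. In TPMCa 11 genes were above both TPM libraries, or 33.3%, against 29.1% of all genes, and 3 were below, against 32.2%. In TPMR1, 10 were above, or 30.3%, against 24.5% of all genes, and 5 below, against 28.4%. In the mean of both, 7 were above both TPM libraries in all 4 libraries, against 15.5% of all genes, and 2 were below, against 19.4%. Between TPMCa and TPMR1, 2 genes were higher in TPMR1, against 18.8% of all genes, and 1 was lower, against 17.7%. The shares of the list that were higher in TPMCa and in TPMR1 were near those of all genes.

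Levels between genes were compared per length, as RPKM, the CPM per kilobase of the annotated exons of a gene. Over all 8 libraries, Atf4 had the highest mean level (143 RPKM, range 99.8 to 323), followed by Phgdh (111 RPKM, range 49.8 to 215.5), Slc3a2 (87.9 RPKM, range 60.6 to 138) and Shmt2 (85.6 RPKM, range 46.2 to 160). The ranges of these 4 overlap. Pycr1 (2.56 RPKM, range 1.67 to 4.24), Aldh1l2 (4.29 RPKM, range 1.54 to 8.69) and Slc7a11 (5.73 RPKM, range 0.858 to 20.8) were lowest. Among the synthetases Nars was highest at 71.2 RPKM and Cars lowest at 13.3 RPKM. Annotated exons of Eprs, Slc7a11, Slc7a1 and Aars sum to 18102, 13922, 11530 and 9282 bases, which divides their levels by more than the common transcript would.

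The genes with and without the letter match in the promoter were set side by side. Of the 8 with TGATGNAA before the start, edgeR called 0 and DESeq2 called 2 in any comparison, Atf3 and Gars. Of the 18 without it, edgeR called 5 (Phgdh, Mthfd2, Slc7a1, Iars and Eprs) and DESeq2 7. Among these 18, Trib3, Slc1a4, Iars and Yars held a match across or after the start. That of Iars, 7 to 14 bases after it, was part of the longer sequence ATTGCATCA. The split thus depends on where the window ends. Relative to TPM, the median gene stood at 1.04 with the match and 0.91 without it in TPMCa replicate 1, and at −0.076 and −0.036 in replicate 2. In TPMR1 the medians were 0.012 and 0.24 with the match and 0.42 and 0.42 without it, and in TPK 0.033 and 0.017 with it and −0.24 and −0.33 without it. Both sets had a high median in TPMCa replicate 1, and in TPK only the set without the match had a median below 0. The difference between the sets was not tested.

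Other genes of the response were taken from lists drawn up by function, also with earlier results known. Of 13 regulators, 1 was lower in TPMCa, in TPMR1 and in their mean against TPM, and 3 were higher in TPK than in that mean. The shares of all genes given above for edgeR apply to these lists, with 4.06% lower and 10.3% higher in TPK than in that mean. Nupr1, a stress protein that ATF4 induces, was 551 and 553 CPM in TPM, 27.7 and 19.7 in TPMCa, 27.6 and 19.5 in TPMR1 and 961 and 1047 in TPK. It was low in all 4 libraries of TPMCa and TPMR1 (log2 fold change −4.55 ± 0.261, adjusted p = 0.000645 against TPM) and higher in TPK than in them (log2 fold change 5.41 ± 0.269, adjusted p = 0.000369). Eif2ak2, a kinase of eIF2 that senses double-stranded RNA, was 78.3 and 62.1 CPM in TPM, 25.4 and 31.9 in TPMCa, 46.2 and 26.1 in TPMR1 and 74.98 and 113 in TPK (log2 fold change 1.55 ± 0.308, adjusted p = 0.0218 in TPK against the mean of TPMCa and TPMR1). Cebpg, a C/EBP partner of ATF4, was at 0.95 ± 0.206 in the same comparison (adjusted p = 0.0290). These 3 genes lay opposite to Phgdh and Mthfd2 across the models. Epithelial marker levels, given above, split the models in the same way as Nupr1, and their part in it was not tested.

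Of 27 tested enzymes of amino acid and folate metabolism outside the 33, 1 was higher in TPMR1 against TPM, the same 1 in the mean of TPMCa and TPMR1 against TPM, and 6 were lower in TPK than in that mean, with 0 called in the opposite direction, where 4.06% of all genes were lower and 10.3% higher. Mtr, methionine synthase, was 11.98 and 9.04 CPM in TPM, 29.1 and 27.3 in TPMCa, 68.7 and 41.6 in TPMR1 and 11.4 and 14.3 in TPK (log2 fold change 2.39 ± 0.374, adjusted p = 0.0214 in TPMR1 against TPM). Cbs, which starts the conversion of homocysteine to cysteine, was 11.9 and 4.81 CPM in TPM, 24.95 and 15.9 in TPMCa, 37.6 and 60.4 in TPMR1 and 4.63 and 8.64 in TPK (log2 fold change −2.25 ± 0.556, adjusted p = 0.0416 in TPK against the mean of TPMCa and TPMR1). Prodh, which breaks down proline, was at −1.91 ± 0.487 in that comparison (adjusted p = 0.0457). The median log2 fold change of the 27 was 0.85 in TPMR1 against TPM and −0.66 in TPK against the mean of TPMCa and TPMR1.

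Of 19 other amino acid transporters, 3 were higher and 2 lower in TPK than in the mean of TPMCa and TPMR1, against the same 10.3 and 4.06% of all genes. Slc7a2, another importer of arginine and lysine, was 26.7 and 19.4 CPM in TPM, 252 and 138 in TPMCa, 97.8 and 265 in TPMR1 and 24.9 and 28.2 in TPK. It was higher in TPMCa (log2 fold change 3.08 ± 0.555, adjusted p = 0.0379) and in TPMR1 (log2 fold change 2.98 ± 0.553, adjusted p = 0.0323) than in TPM, and lower in TPK than in their mean (log2 fold change −2.83 ± 0.516, adjusted p = 0.0171). Slc6a14, an epithelial transporter of neutral and cationic amino acids, was at 92.9 and 51.9 CPM in TPM and at 30.6 and 66.2 CPM in TPK, and had 0 counts in 3 of the 4 libraries of TPMCa and TPMR1 and 2 counts, under the floor, in the remaining library. Slc1a1, a glutamate transporter, was 24.3 and 48.6 CPM in TPM, 0.950 and 0.334 in TPMCa, 0.310 and 2.39 in TPMR1 and 7.32 and 41.9 in TPK (log2 fold change −5.30 ± 0.998, adjusted p = 0.0232 in the mean of TPMCa and TPMR1 against TPM). Slc6a14 and Slc1a1 were thus low in the libraries in which epithelial markers were low, and the part of the marker levels in this was not tested.

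Of the 11 other cytosolic synthetases and scaffold proteins, 0 passed by edgeR in any comparison, and at an unadjusted p under 0.05 at most 1 did in any of them. Of 17 mitochondrial synthetases, Iars2 passed once, lower in TPK than in the mean of TPMCa and TPMR1 (log2 fold change −1.18 ± 0.301, adjusted p = 0.0456). All 17 had a positive log2 fold change in TPMR1 against TPMCa, with a median of 0.64; 0 of them passed and 2 reached an unadjusted p under 0.05. Of 12 genes of the chaperone branch of the unfolded protein response, Sdf2l1, a chaperone cofactor, was higher in TPMCa than in TPM (log2 fold change 1.65 ± 0.316, adjusted p = 0.0443), and Xbp1, a factor that drives chaperone genes, was lower in the mean of TPMCa and TPMR1 than in TPM (log2 fold change −1.49 ± 0.315, adjusted p = 0.0352). Xbp1 was also higher in TPK than in that mean (log2 fold change 1.75 ± 0.314, adjusted p = 0.01605). All 12 had a positive log2 fold change in TPK against TPM, with a median of 0.92, and 7 reached an unadjusted p under 0.05 where 3.37% of all genes did.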

How the data were processed

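Bulk RNA libraries of TPM, TPMCa, TPMR1 and TPK were analyzed, 2 per model, with model and replicate taken from the sample labels; the column headings name TPM as TPMS. The deposited counts are whole numbers of reads per gene symbol, which the authors obtained from trimmed reads aligned to mm10 with STAR. The counter, its annotation and its strand setting are not given in the sources used here. A deposited table of normalized counts was not used. Counts were scaled by the TMM method and tested by the quasi-likelihood test of edgeR 4.0.16 in R 4.3.3, in 1 fit of all 8 libraries with a term for the model, after filterByExpr. Adjustment followed Benjamini and Hochberg over 15875 genes. A standard error is the log2 fold change divided by the root of F. Log2 CPM used a prior count of 2. RPKM used exon lengths of GENCODE M21. The test was checked on simulated counts.

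Alternatives were DESeq2 1.42.0, its size factors, library size alone, other count filters, only the models compared, a replicate block, a p under 0.05 with a log2 fold change beyond 1, and leaving out each library in turn. A promoter window reaching 50 bases past the start was added after seeing the data. In a comparison of 2 with 2 or 2 with 4 libraries the smallest p of a permutation test of a single gene is 0.333 or 0.0667, so none was run.

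The members, lists, markers and comparisons were chosen with earlier results of these data known. Full statistics are given for genes with an adjusted p under 0.05 and for Atf4, Asns, Ddit3 and Trib3, and from each further list at most 3 genes that passed, by size of change. Results on some engineered genes and 1 promoter window are not reported here.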

Additional observations from a re-analysis of the deposited data

Results flagged for a closer look

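Some of the 33 genes lay above both TPM libraries in one model and below both in another, which singles out differences between models measured against the same TPM libraries. Such opposite positions are common with 2 libraries a model: 13.3% of all genes lay that way in TPMCa and TPK, 13.0% in TPMR1 and TPK, and 2.23% in TPMCa and TPMR1. Each difference below is a log2 difference with its standard error and the adjusted p of edgeR for the test of the difference itself. The genes were picked by their positions in the same libraries that these tests use. A large difference was thus favored in advance, and these adjusted p add no separate support.

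Among these genes, Phgdh, Mthfd2, Aldh1l2 and Iars passed in at least 1 such difference. The share of all genes that passed between TPK and TPMCa or TPMR1 alone is not given here. These passes are therefore not read as particular to the list. Phgdh was higher by 1.52 ± 0.328 in TPMCa than in TPK (adjusted p = 0.0466) and by 1.74 ± 0.330 in TPMR1 than in TPK (adjusted p = 0.0268). Mthfd2 was higher by 1.49 ± 0.314 in TPMCa than in TPK (adjusted p = 0.0435) and by 1.61 ± 0.315 in TPMR1 than in TPK (adjusted p = 0.0286). Aldh1l2 was higher by 1.88 ± 0.350 in TPMCa than in TPK (adjusted p = 0.0329), while its difference of 1.05 ± 0.341 between TPMCa and TPMR1 did not pass (adjusted p = 0.380). Aldh18a1 differed by 1.40 ± 0.507 between TPMCa and TPK (adjusted p = 0.138), which did not pass.

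Of the synthetases, Iars was higher by 1.34 ± 0.277 in TPMR1 than in TPK (adjusted p = 0.0326). The others did not pass. Eprs differed from TPK by 1.12 ± 0.293 in TPMCa (adjusted p = 0.0718) and by 1.16 ± 0.293 in TPMR1 (adjusted p = 0.0539). Gars differed from TPK by 1.15 ± 0.292 in TPMCa (adjusted p = 0.0671) and by 0.751 ± 0.290 in TPMR1 (adjusted p = 0.143). Mars differed by 1.03 ± 0.291 between TPMR1 and TPK (adjusted p = 0.0706). Yars differed from TPK by 0.459 ± 0.265 in TPMCa (adjusted p = 0.305) and by 0.525 ± 0.265 in TPMR1 (adjusted p = 0.234).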

How the results depend on the processing

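The number of the 33 genes called depended on the tool and the threshold more than on the scaling. DESeq2 called 3 in TPMCa against TPM, 2 in TPMR1 against TPM, 4 in the mean of both against TPM, 10 in TPK against that mean and 9 by its likelihood ratio test, with 6.14, 6.85 and 7.51% of all genes higher against TPM, 12.9% lower in TPK and 30.0% by the likelihood ratio test. An unadjusted p under 0.05 with a log2 fold change beyond 1 gave 4, 4 and 4 against TPM in TPMCa, TPMR1 and their mean, 1 in TPMR1 against TPMCa and 1 in TPK against TPM, where 7.28, 7.53 and 6.54% of all genes were higher and 5.88 and 2.95% lower. In TPK against the mean of TPMCa and TPMR1 this threshold gave 9, all lower, or 27.3% of the list. There, 9.71% of all genes were lower and 15.5% higher. Size factors of DESeq2 gave 2 in the mean of both against TPM, and library size alone gave 2 there and 1 in TPMR1 against TPM. Fitting the compared models alone gave 1 in TPMCa against TPM, 0 in the mean of both and 2 in TPK against that mean. At least 10 counts in every library left 1 gene in the F test. No called gene reversed in any alternative.

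Over all genes, the differences between replicates correlated at −0.0687 to −0.00819 between models. This cannot decide whether libraries with the same replicate number shared a batch, since each model gives 1 difference and the sample titles give only the number. With a replicate block, 2 genes instead of 6 passed in TPK against the mean of TPMCa and TPMR1, and 0 instead of 2 in the F test.

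Leaving out 1 library at a time changed which genes passed, and the share of all genes that passed in these fits is not given here. Medians of the list ranged from −0.10 to 0.91 in TPMCa against TPM and 0.0057 to 0.33 in TPMR1 against TPM. They ranged from 0.030 to 0.55 in the mean of both against TPM and −0.42 to 0.24 in TPMR1 against TPMCa. In TPK against TPM the range was −0.24 to −0.13. In TPK against the mean of both it was −0.61 to −0.21, and there no call held under every omission. Where an arm kept 1 library, that library was taken to vary like the others. Of 15 alternatives, the call was kept in 13 for Mthfd2, 12 for Phgdh, 8 for Iars and Eprs and 7 for Aldh1l2 and Slc7a1 in that comparison, and in 9 for Mthfd2 against TPM, where it was lost without either TPM library (adjusted p = 0.222 and 0.231 by edgeR), TPMCa replicate 1 (0.0779) or either TPK library (0.0835 and 0.0828), and with the compared models alone (0.0756).

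The longer promoter motif was in 7.69% of the genes instead of 30.8%, and the core in 46.2% when the window reached 50 bases past the start, against 4.51% of all genes. With 2 libraries a model, a gene that did not pass may still differ.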
